A study of Mus musculus with 43 samples.

Results

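The genes examined were 10 genes of V(D)J end joining and of the cellular response to DNA double-strand breaks, 10 of the 55416 genes counted in each library: Prkdc, Xrcc4, Xrcc5, Xrcc6, Lig4, Dclre1c, Nhej1, Rnf168, Trp53bp1 and Atm. They were named by function and not by a rule on measured values, but earlier results of these data were known when they were chosen. All 10 were found by symbol in each of the 43 libraries. Libraries came from oligodendrocytes, oligodendrocyte precursor cells (OPCs), astrocytes and microglia purified from the cerebral cortex of 3-month-old mice. Each of the 6 littermate pairs held 1 Rag2-/- mouse and 1 immunocompetent control, which was Rag2+/- in pairs 1, 2, 3 and 5 and Rag2+/+ in pairs 4 and 6. Rag2-/- mice carried the B6.Cg-Rag2tm1.1Cgn/J allele in every cell of the body, crossed with C57BL/6J, so that the loss of Rag2 within glia and the lack of lymphocytes around them cannot be told apart. Pairs were of 1 sex except pair 6, with a female Rag2-/- mouse and a male control. There were 4 control and 4 Rag2-/- libraries of oligodendrocytes (pairs 1, 3, 5 and 6), 6 and 5 of OPCs (no Rag2-/- library of pair 5), 6 and 6 of astrocytes, and 6 and 6 of microglia.

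In developing lymphocytes the RAG1 and RAG2 proteins cut DNA beside antigen receptor gene segments, and the classical non-homologous end-joining machinery seals the cuts. Xrcc6 (Ku70) and Xrcc5 (Ku80) form the ring that binds broken ends, Prkdc encodes DNA-PKcs, the kinase recruited by Ku, and Dclre1c encodes Artemis, the nuclease that opens the hairpins left by RAG. Lig4 is the ligase of the pathway, Xrcc4 its stabilising partner and Nhej1 (XLF) a scaffold that aligns the ends. Atm is the kinase that signals breaks, Rnf168 the ubiquitin ligase that marks chromatin around them and Trp53bp1 (53BP1) the reader of that mark, which protects ends from resection. Apart from RAG, these proteins act on breaks in every cell type, including cells that no longer divide, such as mature oligodendrocytes.

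Libraries held 6499417 to 23118497 counted read pairs (median 10447042). Levels are given as normalised CPM, counts scaled to a common library size with TMM factors, which bring the middle of the gene distribution close between libraries. The 4 purified cell types matched their labels: 7 of 7 oligodendrocyte, 7 of 7 OPC, 8 of 8 astrocyte and 8 of 8 microglia markers had their highest mean in the cell type they mark. Other cells' RNA was present, and summed astrocyte markers reached 3587 CPM in oligodendrocytes and 5783 CPM in OPCs, against at least 18251 CPM in astrocytes. Genes encoded in mitochondria took 45.8% to 60.1% of counts in oligodendrocytes and 6.75% to 11.7% in microglia. If libraries were scaled to their totals instead, the median gene moved by -1.05 to 0.48 on the log2 scale between cell types, so differences below depend on the scaling. With TMM factors the median gene differed by -0.20 to 0.10 between cell types. Each cell type was sequenced on its own lane, and lane and cell type cannot be told apart. Rag2 was counted 6 times in 3 of the 43 libraries, all of them controls, and so could not check the genotype. T cell gene Cd3e averaged 1.82 ± 0.83 CPM (SD, n = 6) in control microglia and was at 0 in 6 of 6 Rag2-/- microglia libraries, where the limit set by a count of 0 was 3 counts per library.

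All 10 genes were detected in every cell type, and the largest difference between cell types was the high level of Dclre1c in microglia. Adjusted p-values between cell types came from edgeR's quasi-likelihood test with sex as a covariate, fitted in controls and in Rag2-/- libraries separately so that the fits shared no mouse, with Benjamini-Hochberg adjustment over all genes tested. Of 60 tests on the 10 genes in each genotype, 22 passed an adjusted p of 0.05 in controls and 22 in Rag2-/- mice, and 15 passed in both with the same direction. In controls, 3 of 10 genes differed between oligodendrocytes and OPCs, 1 between oligodendrocytes and astrocytes, 5 between oligodendrocytes and microglia, 3 between OPCs and astrocytes, 4 between OPCs and microglia and 6 between astrocytes and microglia. The shares of all genes called in these comparisons were 27.6%, 38.1%, 59.1%, 30.6%, 60.9% and 61%, and the shares of the 10 genes called were near or below these. In Rag2-/- mice the counts were 2, 2, 6, 2, 5 and 5 of 10, beside 27.8%, 39.6%, 59%, 25.6%, 59% and 60.1% of all genes. Microglia held the lowest mean level of Prkdc, Xrcc4, Xrcc6, Lig4, Rnf168, Trp53bp1 and Atm in controls, and the highest of Dclre1c and Nhej1. Some of these ranks were near ties. By edgeR, OPCs exceeded microglia 1.04-fold for Prkdc (adjusted p = 0.83) and oligodendrocytes exceeded them 1.02-fold for Xrcc4 (adjusted p = 0.94). Astrocytes exceeded microglia 1.05-fold for Rnf168 (adjusted p = 0.71), and microglia exceeded OPCs 1.05-fold for Nhej1 (adjusted p = 0.95). With libraries scaled to totals, control oligodendrocytes had the lowest mean of Prkdc, Xrcc4, Lig4, Rnf168, Trp53bp1 and Atm. Control OPCs then had the highest of Nhej1.

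**Figure D1:**
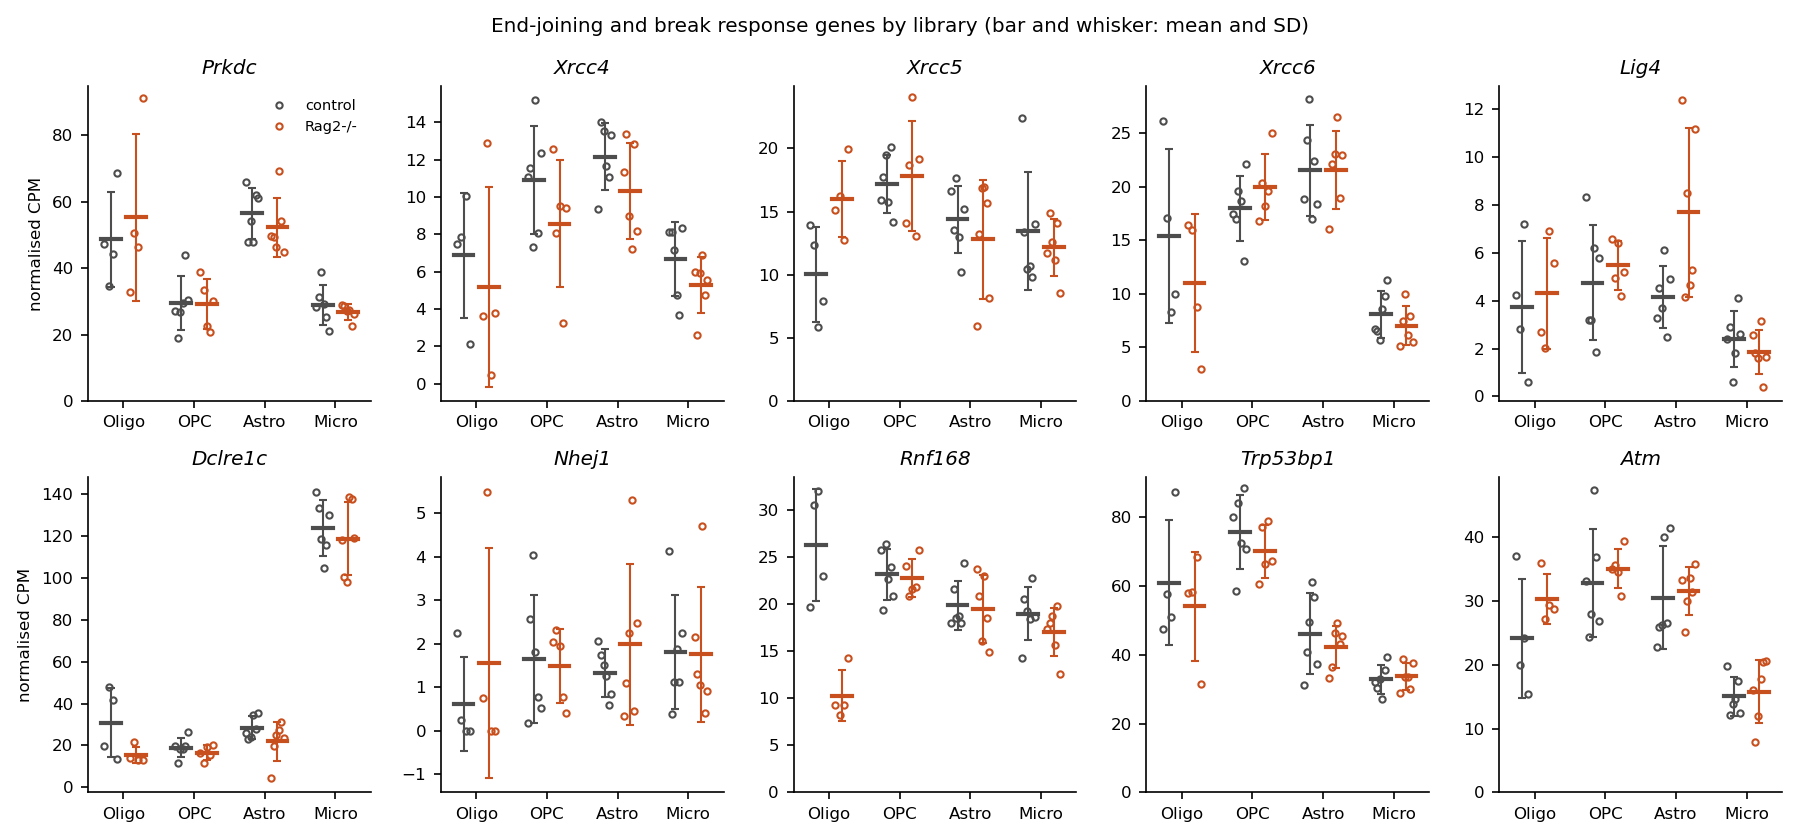
Normalised CPM (vertical axis, from about 0, a separate scale for each gene) of the 10 genes in every library of oligodendrocytes (Oligo), OPCs, astrocytes (Astro) and microglia (Micro). Open circles are libraries, in grey for controls and orange for Rag2-/- mice, and thick bars with whiskers are mean and SD. Dclre1c was at 98.1 CPM or more in every microglia library and at 48.1 CPM or less elsewhere, and Rnf168 in Rag2-/- oligodendrocytes was at 8.17 to 14.3 CPM.

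Dclre1c, the hairpin-opening nuclease, was several times higher in microglia than in the other glia. In control microglia the lowest, median and highest of 6 libraries were 105, 124 and 141 CPM, and in Rag2-/- microglia 98.1, 118 and 139 CPM. Control OPCs had 11.8, 18.9 and 26.3 CPM, and the 5 Rag2-/- OPC libraries had 16.2, 11.6, 19.4, 15.5 and 20.4 CPM in pairs 1, 2, 3, 4 and 6. Control astrocytes had 23.2, 27.05 and 35.5 CPM and Rag2-/- astrocytes 4.43, 24.3 and 31.3 CPM. Every microglia library was above every library of another cell type, while the ranges of OPCs, astrocytes and oligodendrocytes overlapped. The log2 difference between microglia and OPCs was 2.79 (SE 0.23, 95% interval 2.32 to 3.26, 6.90-fold, adjusted p = 6.8e-10) in controls and 2.91 (SE 0.29, 95% interval 2.31 to 3.50, 7.51-fold, adjusted p = 4.6e-08) in Rag2-/- mice. Microglia exceeded astrocytes by 2.11 (adjusted p = 4.2e-08) and oligodendrocytes by 2.08 (adjusted p = 7.2e-07) in controls on the same scale. Among the other cell types in controls, astrocytes were 0.68 above OPCs (adjusted p = 0.027), which did not pass in Rag2-/- mice (0.48, 95% interval -0.12 to 1.09) and in controls was lost with libraries scaled to totals (0.20) or to totals without mitochondrial genes (0.33). Control oligodendrocytes were 0.71 above OPCs (adjusted p = 0.042), a call that was lost with the mouse as a replicate block (adjusted p = 0.097) and whose sign changed with libraries scaled to totals (-0.32). Summed microglia markers were at 307 to 1269 CPM in control oligodendrocytes and 194 to 954 CPM in control OPCs, against 9141 to 10917 CPM in control microglia. The part of microglial RNA in the Dclre1c levels of other cell types was not tested.

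Dclre1c lies at chr2:3425164-3465167 as ENSMUSG00000026648 (GRCm39, plus strand), 98.0 Mb from Rag2 on the same chromosome. Of its annotated exonic bases, 46.7% overlap Suv39h2 on the opposite strand, none of them in the canonical transcript, and whether counting used strand is not given in the sources used here. Suv39h2, a histone methyltransferase gene, was low in all 4 cell types (3.55 ± 1.58 CPM in control microglia and 5.21 ± 2.81 in control OPCs, SD, n = 6 each) and did not differ between microglia and OPCs in controls (adjusted p = 0.42). Meig1, whose start lies 143 bases away on the other strand, had 0.268 ± 0.226 CPM in control microglia (SD, n = 6). Lymphocytes also use Artemis, and summed T and B lymphocyte markers were highest in microglia, at 264 to 398 CPM in controls and 276 to 343 CPM in Rag2-/- mice. Nearly all of that sum was Ighm (304 ± 43 CPM in controls and 301 ± 25 in Rag2-/-, SD, n = 6 each). Of the 13 markers, 2 were at 0 in every Rag2-/- microglia library, Cd3e among them. Cd3d, Cd3g, Trbc2, Cd8a and Igkc also had lower means there. Igkc was at 5.21 ± 5.72 CPM in controls and 0.03 ± 0.04 in Rag2-/-, and Cd8a at 0.79 ± 0.68 and 0.02 ± 0.06 (SD, n = 6 each). Cd79a, Cd4 and Cd79b had similar means in both genotypes, with Cd4 at 8.49 ± 5.04 CPM in controls and 9.09 ± 3.59 in Rag2-/-. Cd79b was at 3.42 ± 1.38 and 3.59 ± 3.06 CPM (SD, n = 6 each). Their part in the microglial level of Dclre1c was not tested. The 142 bases between the starts of Meig1 and Dclre1c are shown because they are all that separates a gene high in microglia from one near 0, with capitals for matches to the GC box GGGCGG and the CCAAT box on either strand (reference sequence of GRCm39, chr2:3425022-3425163, plus strand).
Dclre1c upstream: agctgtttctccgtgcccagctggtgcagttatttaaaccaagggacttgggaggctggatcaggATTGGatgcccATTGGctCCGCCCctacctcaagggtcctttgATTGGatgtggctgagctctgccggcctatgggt
The stretch held 3 CCAAT boxes and 1 GC box. In windows of 250 bases before the outermost start of 21627 protein-coding genes, 36.1% held a CCAAT box and 29.95% a GC box. The letters GAGGAAG, a form of the sites bound by the myeloid factor PU.1, were in 10.2% of windows and had no match in the window of Dclre1c. A search for these exact letters misses other forms of the site, and binding was not tested.

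Prkdc, the DNA-PKcs gene (ENSMUSG00000022672, chr16:15455698-15660099, plus strand), was higher in astrocytes than in OPCs or microglia in both genotypes. In controls the lowest, median and highest values were 47.9, 57.7 and 65.9 CPM in astrocytes, 18.9, 28.3 and 44.1 CPM in OPCs, and 20.9, 28.7 and 39.0 CPM in microglia. The 4 control oligodendrocyte libraries had 47.3, 34.7, 44.3 and 68.5 CPM in pairs 1, 3, 5 and 6. Astrocytes did not overlap OPCs or microglia, and oligodendrocytes overlapped both. The difference between astrocytes and microglia was 0.98 on the log2 scale in controls (SE 0.20, adjusted p = 0.00024) and 0.99 in Rag2-/- mice (SE 0.21, adjusted p = 0.00042), and astrocytes exceeded OPCs by 1.03 (adjusted p = 0.00039) and 0.92 (adjusted p = 0.0039), the second of which was lost with libraries scaled to totals (0.43) or to totals without mitochondrial genes (0.58). Oligodendrocytes exceeded OPCs by 0.76 in controls (adjusted p = 0.014) and 0.91 in Rag2-/- mice (adjusted p = 0.0088), which with libraries scaled to totals became -0.38 and -0.16. They exceeded microglia by 0.71 in controls (adjusted p = 0.0096; -0.20 with totals) and 0.97 in Rag2-/- mice (adjusted p = 0.0013; 0.08 with totals). OPCs and microglia differed by -0.06 in controls (95% interval -0.48 to 0.37). Mcm4, a helicase subunit gene whose start lies 434 bases from that of Prkdc on the other strand, was also lower in microglia than in astrocytes in controls, by 1.21 (adjusted p = 0.00062), but unlike Prkdc it had its highest control mean in OPCs (22.4 ± 7.6 CPM, against 13.1 ± 3.4 CPM in astrocytes, SD, n = 6 each).

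Of the Ku genes, Xrcc6 was lower in microglia than in astrocytes and OPCs in both genotypes, and Xrcc5 passed 1 test between cell types. Xrcc6 (ENSMUSG00000022471, chr15:81871931-81924291, plus strand) had 17.01, 20.6 and 28.1 CPM (lowest, median, highest) in control astrocytes, 13.04, 18.03 and 22.1 CPM in control OPCs and 5.68, 7.63 and 11.3 CPM in control microglia. The microglial range lay below both others. Astrocytes exceeded microglia by 1.41 in controls (SE 0.25, 95% interval 0.89 to 1.93, adjusted p = 4.5e-05) and 1.63 in Rag2-/- mice (SE 0.29, adjusted p = 4.8e-05) on the log2 scale, and OPCs exceeded microglia by 1.05 (adjusted p = 0.0010) and 1.42 (adjusted p = 0.00032). Of the exonic bases of Xrcc6, 7.34% overlap Desi1 on the opposite strand, none of them in the canonical transcript, and Desi1 was at 91.5 ± 31.2 CPM in control astrocytes and 8.99 ± 1.92 CPM in control microglia (SD, n = 6 each). The part of shared reads in the Xrcc6 differences was not tested. Xrcc5 (ENSMUSG00000026187, chr1:72346532-72434112, plus strand) had group means between 10.0 and 17.8 CPM, and 1 of its 12 cell type tests passed: control OPCs exceeded control oligodendrocytes by 0.81 (SE 0.26, adjusted p = 0.025). That call was lost without control mouse 2, 3, 5 or 6 (adjusted p = 0.066, 0.059, 0.190 and 0.068), and in Rag2-/- mice the difference was 0.14 (95% interval -0.47 to 0.75). Divided by canonical transcript length, Xrcc6 reads per kilobase were 1.80 times those of Xrcc5 in control astrocytes and 0.73 times in control microglia, as geometric means over 6 libraries each. The log2 ratio lay between 0.45 and 1.40 in control astrocytes and between -1.48 and 0.27 in control microglia, and this ratio was not tested. Its size depends on the length used. Per kilobase of all annotated exons, mean Xrcc6 and Xrcc5 were 4.34 and 4.24 CPM in control astrocytes. In control microglia they were 1.63 and 3.97 CPM.

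In the ligation step, Xrcc4 and Lig4 were lower in microglia than in astrocytes, each with a call in 1 genotype. Xrcc4 (ENSMUSG00000021615, chr13:89922129-90237754, minus strand) had 9.34, 12.5 and 13.98 CPM (lowest, median, highest) in control astrocytes and 3.69, 7.63 and 8.31 CPM in control microglia, without overlap. The log2 difference was 0.87 in controls (SE 0.30, adjusted p = 0.017) and 1.03 in Rag2-/- mice (SE 0.44, adjusted p = 0.052). Without control mouse 4 the adjusted p in controls was 0.056, and with libraries scaled to totals the difference was 0.64 (adjusted p = 0.081). Of the canonical transcript of Xrcc4, 7.22% overlaps Tmem167 on the opposite strand, which was at 24.7 ± 3.7 CPM in control astrocytes and 22.6 ± 6.2 CPM in control microglia (SD, n = 6 each). Xrcc4 was also 0.90 lower in oligodendrocytes than in astrocytes in controls (adjusted p = 0.045), a call lost with the mouse as a replicate block (adjusted p = 0.11). Lig4 (ENSMUSG00000049717, chr8:10019049-10027686, minus strand) had 4.16, 6.90 and 12.4 CPM in Rag2-/- astrocytes and 0.413, 1.72 and 3.14 CPM in Rag2-/- microglia, and the difference of 2.09 passed the test (SE 0.44, adjusted p = 0.00039). In controls it was 0.84 (95% interval -0.19 to 1.87, adjusted p = 0.15). Rag2-/- OPCs exceeded Rag2-/- microglia by 1.49 (adjusted p = 0.0079), against 0.96 in controls (adjusted p = 0.10), and whether these differences themselves differed between genotypes did not pass the test of the interaction (adjusted p = 0.83). The call between oligodendrocytes and microglia in Rag2-/- mice (1.21, adjusted p = 0.042) was lost with the replicate block (adjusted p = 0.099). Per kilobase of canonical transcript, Lig4 was at 0.47 to 0.94 CPM and Xrcc4 at 4.31 to 7.83 CPM in the 4 control groups. This gap depends on the length used, since the canonical transcript of Xrcc4 has 1551 bases and its annotated exons 12238. Per kilobase of all annotated exons, Lig4 was at 0.46 to 0.90 CPM and Xrcc4 at 0.55 to 0.99 CPM in the same groups. Nhej1 (ENSMUSG00000026162, chr1:75004985-75101899, minus strand) was at 0.21 to 0.61 CPM per kilobase in controls, a range that overlaps that of Lig4, and passed in 0 of 12 tests by edgeR, with 0 of 12 at an unadjusted p under 0.05. From oligodendrocytes, its lowest control group, to microglia, its highest, the log2 difference was 1.62 in controls (SE 0.94, adjusted p = 0.147) and 0.68 in Rag2-/- mice (SE 0.95). Without control mouse 1 it was 3.73 (adjusted p = 0.0066), without Rag2-/- mouse 3 it was 3.00 (adjusted p = 0.037), and with libraries scaled to totals it was 2.34 in controls (adjusted p = 0.035). Leaving out the other mice gave 1.20 to 1.83 in controls and 0.14 to 0.72 in Rag2-/- mice. It was at 0 in 2 of 4 control and 2 of 4 Rag2-/- oligodendrocyte libraries and did not pass the count filter in the genotype fit of that cell type.

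Among the break response genes, Atm and Trp53bp1 were lower in microglia than in OPCs in both genotypes. Atm (ENSMUSG00000034218, chr9:53348097-53448236, minus strand) had 24.4, 30.6 and 47.3 CPM (lowest, median, highest) in control OPCs, 22.8, 26.4 and 41.3 CPM in control astrocytes and 12.1, 14.3 and 19.9 CPM in control microglia. Microglia did not overlap either. OPCs exceeded microglia by 1.04 in controls (SE 0.22, adjusted p = 0.00034) and 1.07 in Rag2-/- mice (SE 0.21, adjusted p = 0.00014), and astrocytes exceeded them by 1.03 (adjusted p = 0.00040) and 1.01 (adjusted p = 0.00017). Npat, a histone gene activator that starts 11 bases from Atm on the other strand, was also lowest in microglia, with 38.1 ± 7.0 CPM in control OPCs and 10.6 ± 2.6 CPM in control microglia (SD, n = 6 each), a log2 difference of 1.77 (adjusted p = 7.1e-07). Unlike Atm, Npat had its highest control mean in oligodendrocytes (72.5 ± 36.1 CPM, against 24.1 ± 9.3 CPM for Atm, SD, n = 4). With libraries scaled to totals, Npat was at 44.3 CPM in control oligodendrocytes and 49.4 CPM in control OPCs. Trp53bp1 (ENSMUSG00000043909, chr2:121023762-121120840, minus strand, 19.7 Mb from Rag2) had 58.6, 76.4 and 88.5 CPM in control OPCs and 27.1, 32.5 and 39.3 CPM in control microglia, without overlap. OPCs exceeded microglia by 1.12 in controls (SE 0.19, adjusted p = 1.9e-05) and 0.98 in Rag2-/- mice (SE 0.17, adjusted p = 4.0e-05), and OPCs exceeded astrocytes by 0.62 (adjusted p = 0.013) and 0.64 (adjusted p = 0.0076). Of its exonic bases, 17.9% overlap Tubgcp4 on the opposite strand, and of its canonical transcript 26.7%. Tubgcp4 was at 17.3 ± 2.8 CPM in control OPCs and 11.2 ± 3.4 CPM in control microglia (SD, n = 6 each). The part of shared reads in the Trp53bp1 differences was not tested. Map1a, which starts 769 bases from Trp53bp1 on the other strand, was 2.91 higher in control OPCs than in control microglia (edgeR adjusted p = 6.7e-12). Its highest control mean was in oligodendrocytes (802 ± 101 CPM, SD, n = 4). Oligodendrocytes exceeded microglia for Atm by 0.61 in controls (adjusted p = 0.039) and 0.87 in Rag2-/- mice (adjusted p = 0.0019), and for Trp53bp1 by 0.84 (adjusted p = 0.0014) and 0.62 (adjusted p = 0.0061), but with libraries scaled to totals these 4 differences were -0.22, 0.00, -0.04 and -0.22. Rnf168 was the most even of the break response genes in controls, with group means between 18.97 and 26.3 CPM and 0 of 6 tests passed by edgeR (1 of 6 at an unadjusted p under 0.05, oligodendrocytes over microglia by 0.41, which passed with DESeq2 at an adjusted p of 0.0098 and was -0.43 with libraries scaled to totals).

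Genotype was then compared within each cell type. None of the 10 genes was called between Rag2-/- and control libraries by edgeR's quasi-likelihood test with sex as a covariate, in 39 tests, of which 2 had an unadjusted p under 0.05. Called genes were 0 of 9 in oligodendrocytes, beside 0% of all genes tested, and 0 of 10 in OPCs (0.00592% of all), astrocytes (0.00679%) and microglia (0.00667%). At an unadjusted p under 0.05 there was 1 of 9 in oligodendrocytes, beside 3.38% of all genes, 0 of 10 in OPCs (4.02%), 1 of 10 in astrocytes (2.87%) and 0 of 10 in microglia (2.9%). DESeq2, the test that the study used for genotype, called 1 of the 10 genes, Rnf168 in oligodendrocytes, and 0 in the other cell types. The members tested had a median log2 fold change of -0.16 (oligodendrocytes), -0.04 (OPCs), -0.06 (astrocytes) and -0.11 (microglia), beside 0.0031, -0.0062, 0.0014 and -0.0057 over all genes tested. Precision differed by cell type. Standard errors were 0.35 to 0.96 in oligodendrocytes and 0.12 to 0.49 in microglia, where the interval for Dclre1c was -0.31 to 0.17 and that for Trp53bp1 -0.25 to 0.28.

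**Figure D2:**
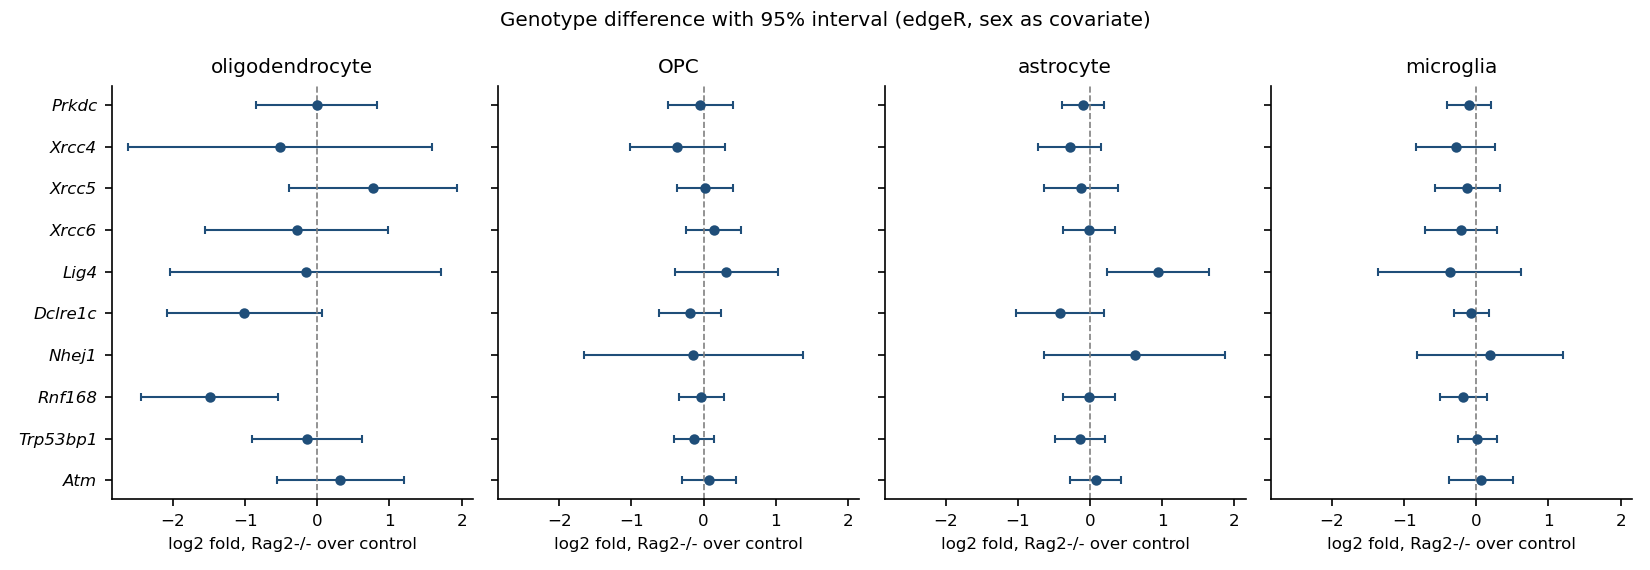
Log2 fold change of Rag2-/- over control (horizontal axis) with 95% intervals for the 10 genes (rows) in each cell type (panels), from edgeR with sex as a covariate. The interval lay below 0 for Rnf168 in oligodendrocytes (-2.44 to -0.54) and above 0 for Lig4 in astrocytes (0.23 to 1.65), neither of which passed adjustment over all genes, and Nhej1 was not tested in oligodendrocytes.

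Rnf168 in oligodendrocytes had the smallest p-value of the 39. The gene lies at chr16:32096275-32120252 as ENSMUSG00000014074 (plus strand), and no annotated exon of another gene overlaps it on either strand. Control oligodendrocytes had 19.7, 30.4, 32.0 and 22.9 CPM and Rag2-/- oligodendrocytes 9.32, 8.17, 9.26 and 14.3 CPM in pairs 1, 3, 5 and 6, from 150 to 236 and from 59 to 102 read pairs. Each Rag2-/- library was below its littermate and below every control library. The log2 fold change was -1.49 (SE 0.44, 95% interval -2.44 to -0.54), rank 33 by p-value among 13802 genes in edgeR's quasi-likelihood test, and the adjusted p was 0.998. The adjusted p was 0.0070 by DESeq2 with the same terms, and 0.863 to 1 under the 14 other edgeR settings, among them the littermate pair as a replicate block (-1.58, adjusted p = 0.999). Leaving out any 1 of the 8 libraries gave fold changes of -1.59 to -1.40. In the other cell types the fold changes were -0.03 (95% interval -0.35 to 0.28) in OPCs, -0.01 (-0.37 to 0.34) in astrocytes and -0.18 (-0.50 to 0.15) in microglia.

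The test of whether the genotype effect differed between cell types, fitted to all 43 libraries, called Rnf168 (edgeR, adjusted p = 0.025, rank 24 of 21368 genes). It was the only one of the 10 genes called, beside 0.248% of all genes, and the adjusted p-values of the other 9 were 0.645 to 1. The call was lost with the mouse as a replicate block (adjusted p = 0.244) and without pair 1, 2, 3, 4 or 5 (adjusted p = 0.057, 0.091, 0.167, 0.110 and 0.202), and was kept without pair 6 (0.013). By DESeq2's likelihood ratio test the adjusted p was 4.7e-05. Within Rag2-/- mice, oligodendrocytes were lower in Rnf168 than OPCs by 1.14 (adjusted p = 0.0012), than astrocytes by 1.01 (adjusted p = 0.0016) and than microglia by 0.79 (adjusted p = 0.0057, and 0.061 without mouse 5), whereas in controls the 3 differences were 0.21, 0.34 and 0.41 in the opposite direction, none called. Control oligodendrocytes are shared between these statements and the genotype comparison, as are the Rag2-/- libraries, so they are not separate evidence. Summed markers of other cells in control and Rag2-/- oligodendrocytes had ranges of 1306 to 3587 and 1506 to 2604 CPM for astrocytes, 227 to 799 and 209 to 1147 CPM for OPCs, 307 to 1269 and 557 to 1186 CPM for microglia, and 604 to 3048 and 574 to 2195 CPM for neurons. Mitochondrial genes took 45.8% to 58.3% and 48.5% to 60.1% of counts. These ranges overlapped, and their part in the Rnf168 values was not tested. In bulk samples of purified cells, fewer cells expressing a gene and less of its RNA per cell cannot be told apart. The 250 bases before the start of Rnf168 are shown as the reference context of the gene with the largest genotype difference (GRCm39, chr16:32096025-32096274, plus strand), and they hold no match to the 3 motifs searched.
Rnf168 upstream: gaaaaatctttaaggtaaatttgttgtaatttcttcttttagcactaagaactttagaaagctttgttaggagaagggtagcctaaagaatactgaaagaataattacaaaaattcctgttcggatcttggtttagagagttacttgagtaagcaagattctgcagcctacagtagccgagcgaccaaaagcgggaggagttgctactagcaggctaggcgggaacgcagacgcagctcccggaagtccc

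**Figure D3:**
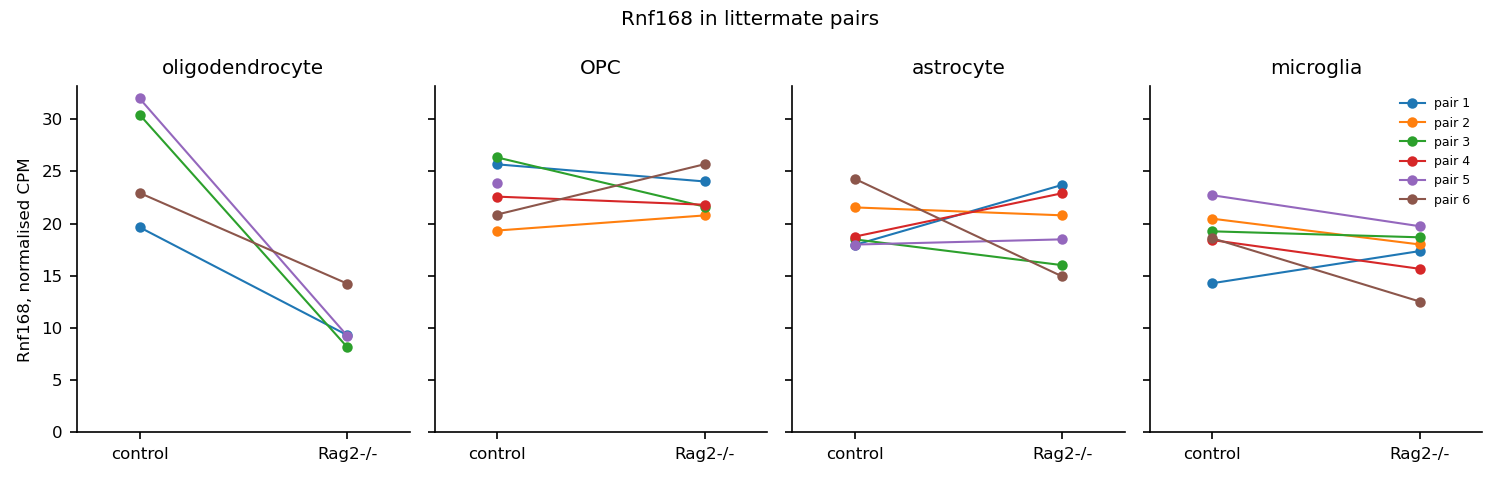
Normalised CPM of Rnf168 (vertical axis, from 0) in control and Rag2-/- libraries of each cell type (panels), with lines joining littermates of 1 pair. In oligodendrocytes each of the 4 pairs had its lower value in the Rag2-/- mouse (8.17 to 14.3 CPM, against 19.7 to 32.0 CPM in controls), and in the other cell types lines ran in both directions.

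The other genes were further from the threshold. Lig4 in astrocytes was at 3.28, 4.52, 3.68, 6.13, 2.50 and 4.92 CPM in controls and 12.4, 4.16, 8.50, 4.65, 5.30 and 11.2 CPM in Rag2-/- mice of pairs 1 to 6, higher in the Rag2-/- mouse in 4 of 6 pairs, with overlapping groups. Its log2 fold change was 0.94 (SE 0.34, 95% interval 0.23 to 1.65, edgeR adjusted p = 1.00, rank 82 by p-value among 14725 genes), and with the replicate block 0.73. Abhd13, which starts 437 bases from Lig4 on the other strand, had -0.36 in astrocytes (adjusted p = 1.00). Dclre1c in oligodendrocytes was at 19.9, 48.1, 41.8 and 13.8 CPM in controls and 14.1, 21.5, 13.2 and 13.1 CPM in Rag2-/- mice of pairs 1, 3, 5 and 6. It was lower in the Rag2-/- mouse in 4 of 4 pairs, with overlapping groups, and its log2 fold change was -1.01 (SE 0.49, 95% interval -2.09 to 0.06, edgeR adjusted p = 0.998). The part of microglial RNA in these Dclre1c values was not tested. Xrcc5 in oligodendrocytes was higher in the Rag2-/- mouse in 4 of 4 pairs (0.77, SE 0.53, edgeR adjusted p = 0.998). At their smallest p-value, the log2 fold changes were 0.32 (SE 0.40) for Atm in oligodendrocytes, -0.10 (SE 0.14) for Prkdc, -0.28 (SE 0.21) for Xrcc4 and 0.62 (SE 0.60) for Nhej1 in astrocytes, -0.13 (SE 0.13) for Trp53bp1 in OPCs and -0.21 (SE 0.24) for Xrcc6 in microglia. The adjusted p-values of these 9 values were 0.998 to 1.00.

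The sexes were compared as the other term of the same fits. None of the 10 genes was called between female and male libraries by edgeR in any cell type, beside 0.0362% (oligodendrocytes), 0.0296% (OPCs), 0.0407% (astrocytes) and 0.0467% (microglia) of all genes. DESeq2 called none of them either. The smallest unadjusted p by edgeR was 0.0056, for Nhej1 in microglia, with a mean of 0.83 CPM in females and 2.47 CPM in males (log2 difference -1.59, SE 0.51, edgeR adjusted p = 1.00). These values rested on 4 to 36 read pairs in control and 6 to 60 in Rag2-/- microglia libraries.

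Genes of the wider pathways were read from 3 lists. In a list of 12 RAG and end-joining partners, Rag1 was counted 32 times in 7 of 43 libraries. Dntt, which adds nucleotides at the joints, was counted 245 times in 22 libraries, with 64 counts in control and 87 in Rag2-/- oligodendrocytes, of which 1 library held 58. Per kilobase of transcript, Paxx, a further Ku-binding scaffold, and the chromatin protein gene Hmgb1 were the highest of the list. Paxx had 24.7 ± 9.1 CPM in control astrocytes and 5.56 ± 1.41 CPM in control microglia (SD, n = 6 each), a difference of 2.15 (adjusted p = 6.7e-06), and 1.75 in Rag2-/- mice (adjusted p = 4.9e-05). In a list of 14 genes of break sensing and chromatin, Trp53, the p53 gene, and Parp1, the poly(ADP-ribose) polymerase of break sensing, were the highest per kilobase, and Shld3 and Chek2 the lowest. Like Dclre1c, Trp53 had its highest mean in microglia, with 130 ± 10 CPM in control microglia, 39.0 ± 3.4 in control OPCs and 30.7 ± 4.6 in control astrocytes (SD, n = 6 each), and microglia exceeded OPCs by 1.82 in controls (adjusted p = 7.5e-09) and 2.01 in Rag2-/- mice (adjusted p = 1.0e-08). In a list of 12 genes of homologous recombination and alternative joining, Rad52 and Rbbp8 were the highest per kilobase. Rbbp8, which encodes the resection factor CtIP, had 57.0 ± 9.1 CPM in control microglia and 15.2 ± 5.1 CPM in control OPCs (SD, n = 6 each), a difference of 1.98 (adjusted p = 2.8e-06), and 2.03 in Rag2-/- mice (adjusted p = 0.00076).

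Between control OPCs and microglia, 3 of 9 tested end-joining partners were higher in OPCs and 0 in microglia, 3 and 2 of 14 break sensing genes, and 4 and 1 of 12 recombination genes, beside the 60.9% of all genes called there. The median log2 differences of the lists were -0.04, -0.30 and 0.36, beside 0.08 over all genes. Between control OPCs and astrocytes, 7 of 12 recombination genes were called, 6 of them higher in OPCs (Brca1, Brca2, Bard1, Rbbp8, Rad54l and Polq), beside 30.6% of all genes. In Rag2-/- mice 2 of 12 were called, Rbbp8 and Exo1, both higher in OPCs, beside 25.6% of all genes. Summed cell cycle markers were at 45.3 to 87.6 CPM in control OPCs and 5.24 to 29.2 CPM in control astrocytes. The part of cycling cells in these values was not tested. For genotype, 0 genes of the 3 lists were called in any cell type by edgeR, with 1 of 8 tested end-joining partners in astrocytes (2.87% of all genes) and 1 of 13 break sensing genes in microglia (2.9%) at an unadjusted p under 0.05, and the test of the genotype effect between cell types called none of them.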

How the data were processed

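Cortical glia were immunopanned with antibodies to CD45 (microglia), PDGFRα (OPCs), GalC (oligodendrocytes) and HepaCAM (astrocytes). Mice were perfused, and macrophages from outside the brain that carry CD45 could still enter the microglia libraries. The authors amplified the RNA, sequenced read pairs, aligned them with STAR 2.7.8a to GRCm39 and deposited whole-number counts per gene made with HTSeq. The counting mode and strand setting are not given in the sources used here. Entries of read pairs assigned to no gene, 33.5% to 52.0% of a library, were left out. Gene symbols came from GENCODE M39 and matched 54749 of 55416 identifiers.

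Counts were tested with edgeR 4.0.16 in R 4.3.3 (quasi-likelihood test, TMM factors, filterByExpr with a minimum count of 10 and a total of 15, Benjamini-Hochberg over all genes, threshold 0.05). Genotype and sex were fitted together within each cell type, as in the study's model, and cell types within each genotype with sex as a covariate. Printed CPM used 1 set of TMM factors over the 43 libraries, and values per kilobase were divided by the length of the canonical transcript. The study itself tested genotype with DESeq2, in an earlier version. Here DESeq2 1.42.0, other scalings, filters, left-out libraries and a replicate block were alternatives. Each number marks 1 littermate pair per the labels, and deviations of same-numbered libraries from their group means correlated at a mean of 0.105 to 0.155 by cell type, against -0.039 to -0.021 for other pairs. The scripts were tested on simulated data. The 10 genes and the wider lists were chosen with earlier results of these data known. The rule for named genes took every member, and the 2 highest and 2 lowest genes per kilobase of each wider list. Some genes of the lists are not reported here. No pair of libraries was alike within sampling noise. Intervals on counts of 0 cover counting error only.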

Additional observations from a re-analysis of the deposited data

Results flagged for a closer look

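In 80 groups of libraries, 4 had 1 library set apart from the others by a gap large for the group's range, and chance sets apart about 1 group in 20. Xrcc5 in control microglia was at 22.4 CPM in mouse 1, against 9.83 to 14.1 CPM in the other 5. Dclre1c in Rag2-/- oligodendrocytes was at 21.5 CPM in mouse 3, against 13.1 to 14.1 CPM in the others. Nhej1 in oligodendrocytes was at 2.24 CPM in control mouse 1, against 0 to 0.258 CPM, and at 5.49 CPM in Rag2-/- mouse 3, against 0 to 0.750 CPM. These Nhej1 values came from 18 and 43 read pairs.

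The genotype effect on Rnf168 differed between cell types by edgeR's test of the interaction (adjusted p = 0.025). The effect was -1.49 on the log2 scale in oligodendrocytes, with each of 4 pairs lower, and -0.18 to -0.01 in the other cell types. The call was lost in 7 of the 10 alternatives, among them the replicate block (adjusted p = 0.244).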

How the results depend on the processing

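By DESeq2, 1 of the 10 genes was called by genotype in oligodendrocytes (Rnf168), with 203 genes called in all against 0 by edgeR, and the cause was not tested. No genotype or sex count changed under any other setting, where each stayed at 0. With libraries scaled to totals, 8 genes were called between oligodendrocytes and OPCs and 5 between oligodendrocytes and astrocytes in controls, and 8, 6 and 2 in Rag2-/- mice between oligodendrocytes and OPCs, astrocytes and microglia. Totals without mitochondrial genes gave 9 between OPCs and microglia in each genotype and 2 between control oligodendrocytes and astrocytes. For that last comparison DESeq2 size factors, no filter and the replicate block each gave 0, and between control oligodendrocytes and microglia no filter gave 3. The interaction count was 0 with no filter and 0 with the replicate block. The replicate block also changed Nhej1 by genotype in astrocytes to -0.0789, and totals changed Rnf168 between control oligodendrocytes and microglia to -0.43. Of the 22 calls between cell types in each genotype, the block kept 20 in controls and 21 in Rag2-/- mice, and the 3 lost are given in the report. Scaling to totals kept 13 of the calls in controls and 16 in Rag2-/- mice, and totals without mitochondrial genes kept 19 and 20.

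Leaving out 1 mouse at a time gave, in controls, 1 to 3 genes between oligodendrocytes and OPCs, 0 to 2 between oligodendrocytes and astrocytes, 4 to 5 between oligodendrocytes and microglia, 2 to 3 between OPCs and astrocytes, 4 to 5 between OPCs and microglia and 4 to 6 between astrocytes and microglia. In Rag2-/- mice the ranges were 1 to 4, 1 to 4, 4 to 7, 1 to 3, 5 to 5 and 5 to 6. Leaving out 1 pair gave 0 to 1 for the interaction. The Dclre1c difference between microglia and OPCs stayed between 2.66 and 2.88 in controls and 2.75 and 3.00 in Rag2-/- mice. Oligodendrocytes, with 4 libraries a group, had the widest genotype intervals. Their median SE over all genes tested was 0.64, against 0.23 to 0.28 in the other cell types, and the cause was not tested. Nhej1 and Lig4 rested on few read pairs.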
